A study of Arabidopsis thaliana with 12 samples.

Results

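The UDP-glycosyltransferases named UGT in the array's platform annotation were represented by 47 of 22746 probe sets. A probe set was taken as a member when the annotation paired it with 1 gene and that gene's symbol began with UGT followed by a number, with no filter on expression. Of these, 25 passed the filter on low signal and were well measured, and 22 lay below it.

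UDP-glycosyltransferases are cytosolic enzymes that move a sugar from a UDP-sugar, most often UDP-glucose, onto small acceptor molecules. In plants the acceptors include the hormones abscisic acid (ABA), auxin, cytokinin and salicylic acid, and also flavonoids, hydroxycinnamic acids, monolignols and glucosinolate precursors. Adding the sugar usually makes the acceptor more soluble, alters its activity and allows it to be stored in the vacuole, and beta-glucosidases can release some of these conjugates again.

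The samples were Arabidopsis thaliana plants grown from cold-treated seed on agar with 1% sucrose, and total RNA was hybridised to 12 single-colour ATH1 arrays, with 2 arrays in each of 6 groups. The groups at 12 d were the wild types Col-0 and Col-7, aba2 (also called gin1-3), and etr1, given as etr1-1 in the design text. The groups at 14 d were Col-0 and ein2, given there as ein2-1. The labels name no organ, no array batch and no separate culture behind each replicate, so p-values measure only the spread between these arrays. The aba2 mutant lacks an enzyme of ABA synthesis, etr1-1 carries a dominant insensitive form of an ethylene receptor, and ein2-1 has lost a protein that ethylene signalling requires. Nothing in the labels ties aba2 to either wild type, so it was set against both at 12 d.

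All arrays had been scaled to nearly the same trimmed mean (500.038 to 500.048), and their median signal lay between 187.938 and 213.894. The medians were apart by age, at 208.032 to 213.894 on the 4 arrays at 14 d and 187.938 to 198.492 on the 8 at 12 d. The Col-0 arrays at 12 d stood apart from each other more than any other pair. Of the 25 well-measured members, 9 (36%) differed by over 2-fold between the Col-0 12 d replicates, against 11.5% of all tested probe sets. The count was 4 for Col-7 (6.30% of all), 1 for Col-0 at 14 d (0.542%), 1 for ein2 (0.498%), 0 for aba2 (1.61%) and 0 for etr1 (0.945%). Replicate 1 of Col-0 at 12 d had the higher signal for UGT71B1, UGT74B1, UGT76E11, UGT78D1 and UGT78D2. Replicate 2 had the higher signal for UGT73B1, UGT73B5, UGT85A4 and UGT85A5, with UGT85A4 at 4.39-fold. In Col-7, 8 of these 9 leaned the same way between replicates 1 and 2, as did 88.8% of all probe sets past 2-fold in Col-0. Results for members that rest on Col-0 at 12 d are given below without each of its arrays where that changed a call. No such refit is given for genes outside the members.

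**Figure D1:**
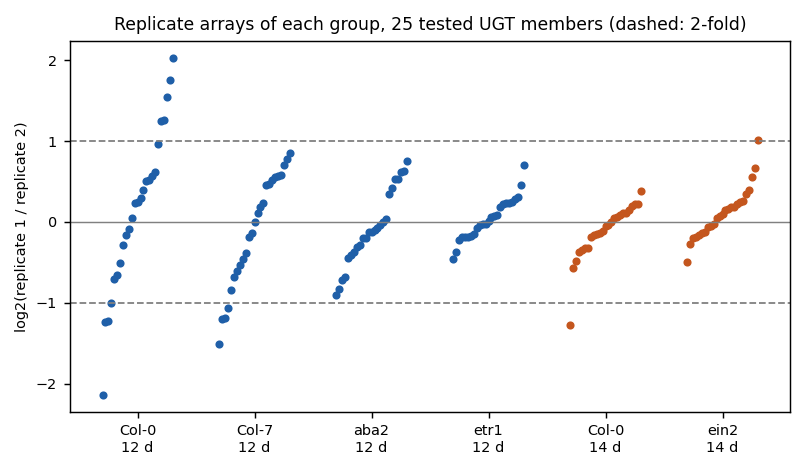
The vertical axis is log2 of the ratio of replicate 1 to replicate 2 in MAS5 signal, with 1 point for each of the 25 well-measured members, sorted within each group along the horizontal axis. The dashed lines mark 2-fold, which 9 members passed in Col-0 at 12 d, 4 in Col-7 and at most 1 in any other group.

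A member was called well measured when its mean signal over the 12 arrays reached 122.289, the 40th percentile of all probe sets. UGT84A4 lay just above that limit at a mean of 123.3, and UGT71C3 just below it at 107.7. All 25 well-measured members had a signal over 50 on all 12 arrays. Of the 22 below the limit, 8 had no array over 50 and 14 had some. A signal compares arrays for 1 probe set and does not rank genes against each other.

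By the letters commonly used for the branches of the Arabidopsis family, 8 of 14 members in group E were well measured, 4 of 8 in group H (family UGT76), 4 of 8 in group L (UGT74 and UGT84), 3 of 5 in group G (UGT85), 2 of 7 in group D (UGT73) and 2 of 3 in group F (UGT78). The single members of group J (UGT87A2) and of the sterol glycosyltransferases outside these groups (UGT80B1, which glycosylates sterols) were well measured too. Members often lay beside each other in the genome: 24 of 47 were direct neighbours of another member, and 31 had another member within 3 protein-coding genes. Closely related neighbours can share probe sequence, and how far their signals mix was not tested.

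The well-measured members with the highest mean signal were UGT88A1, at a mean of 4363 and a range of 3382 to 5900, UGT74B1 and UGT72E1. UGT74B1, which glucosylates a glucosinolate precursor, had a mean of 1561, and UGT72E1, which acts on monolignol aldehydes, had 934.6. The lowest were UGT84A4 at 123.3, UGT73B5 at 145.9 and UGT72B3 at 172.7. The members below the filter had mean signals from 4.2 (UGT76E1) to 107.7.

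**Figure D2:**
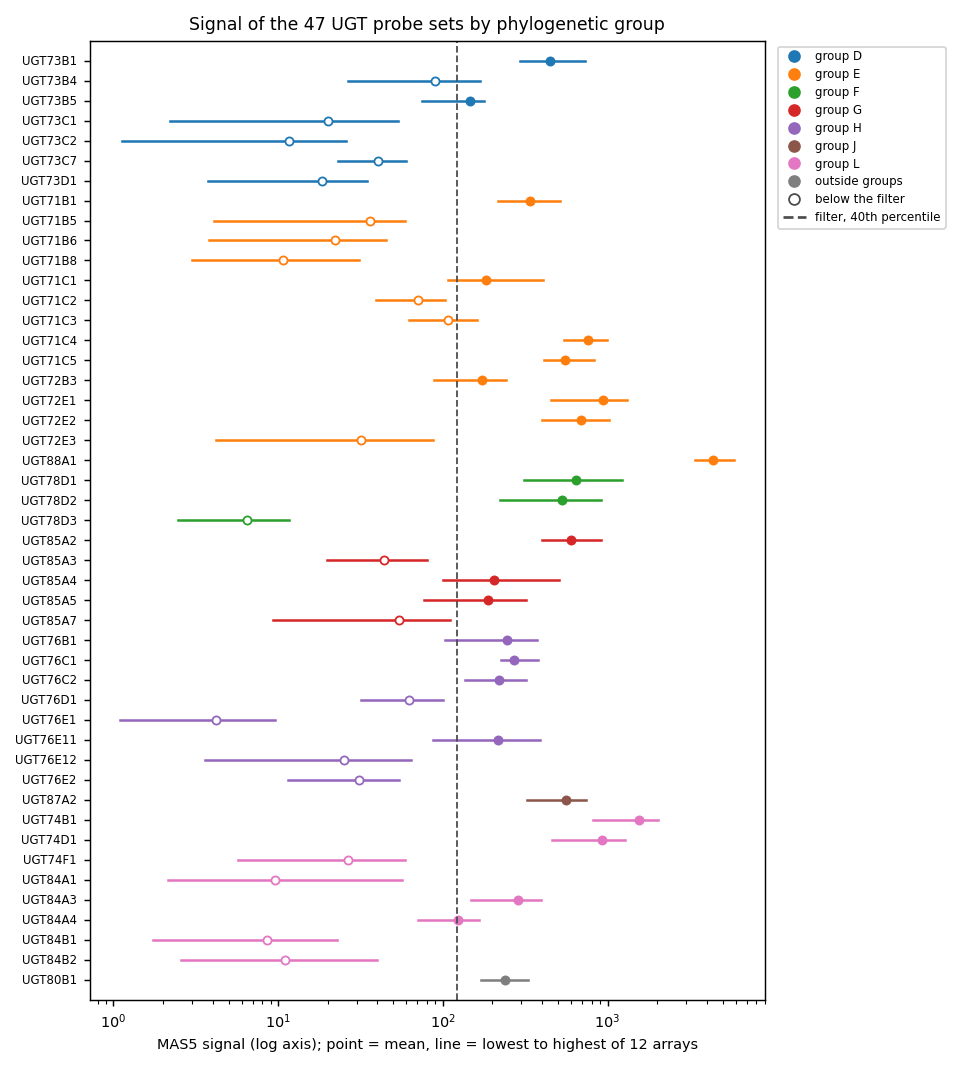
The horizontal axis is MAS5 signal on a log scale, and each of the 47 members has a point at its mean and a line from its lowest to its highest of 12 arrays, coloured by group of the family. The dashed line is the filter at 122.289, with 25 filled points at or above it and 22 open points below.

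The first question was which members differed among the 6 groups at all. UGT84A3, UGT72E2 and UGT76C2 did, by the F test of limma with Benjamini-Hochberg adjustment over 13648 probe sets. They are 3 of 25 well-measured members (12%), close to the 12.9% of all tested probe sets that passed. In each of the 3, the arrays at 14 d stood apart from those at 12 d. All 4 arrays at 14 d lay outside the range of all 8 at 12 d for 4 of 25 members (16%), against 12.5% of all tested probe sets, and UGT71C4 was the other one. Samples of 14 d include ein2 as well as Col-0, and whether the plants of both ages were grown or hybridised together is not stated, so age and growth run cannot be told apart.

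UGT84A3 makes glucose esters of hydroxycinnamic acids. Its signal in replicates 1 and 2 was 385.6 and 268.6 in Col-0 at 12 d, 394.1 and 392.8 in Col-7, 250.6 and 286.6 in aba2, 349.7 and 355.3 in etr1, 192.6 and 148.2 in Col-0 at 14 d, and 187.3 and 212.1 in ein2. The 4 arrays at 14 d were the lowest 4, and the ein2 and Col-0 arrays at 14 d overlapped. UGT84A3 fell by 0.76 ± 0.179 (SE) on the scale of log2(signal + 50) between 12 d and 14 d in Col-0 (limma adjusted p = 0.0314), and its adjusted p for any difference among the 6 groups was 0.0157.

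UGT76C2 is an enzyme of cytokinin N-glucosylation, which inactivates the hormone. Its signal was 190.8 and 155.6 in Col-0 at 12 d, 136.1 and 187.1 in Col-7, 213.8 and 213.2 in aba2, 206.2 and 169.5 in etr1, 319.0 and 319.7 in Col-0 at 14 d, and 271.2 and 252.2 in ein2. Both Col-0 arrays at 14 d were the highest, followed by both ein2 arrays. UGT76C2 rose by 0.73 ± 0.166 from 12 d to 14 d in Col-0 (limma adjusted p = 0.0285), with an adjusted p of 0.0384 among the 6 groups. Its call among the 6 groups was lost in 8 of 12 fits that left out 1 array.

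UGT72E2 glucosylates the monolignols coniferyl and sinapyl alcohol, the building blocks of lignin. Its signal was 746.1 and 632.8 in Col-0 at 12 d, 402.5 and 580.8 in Col-7, 444.6 and 548.6 in aba2, 639.7 and 549.1 in etr1, 918.5 and 1016 in Col-0 at 14 d, and 985.9 and 865.1 in ein2. The arrays at 14 d were again the highest 4, while Col-7 and aba2 overlapped fully. The adjusted p among the 6 groups was 0.0242 (limma), and no single comparison passed: the difference between ages in Col-0 was 0.46 ± 0.196 (adjusted p = 0.217). The call among the 6 groups was lost in 7 of 12 fits that left out 1 array (aba2 replicate 1 or any array of Col-0 at 14 d, ein2 or etr1), with an adjusted p of up to 0.0946.

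UGT71C4 had signals of 707.7 to 994.2 (median 808.0) over the 8 arrays at 12 d and of 540.4 to 679.6 (median 617.3) over the 4 at 14 d. Those ranges did not overlap, and the difference between ages in Col-0 was -0.43 ± 0.160 (limma adjusted p = 0.158).

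In the comparison of Col-0 at 14 d with Col-0 at 12 d, 2 of 25 members passed, UGT76C2 and UGT84A3, which is 8% against 6.48% of all tested probe sets. Of all, 4.61% rose and 1.88% fell. The calls rest on few arrays. UGT84A3 no longer passed without Col-0 12 d replicate 1 (-0.54, limma adjusted p = 0.0938), and UGT76C2 no longer passed without Col-0 12 d replicate 2 (0.62, adjusted p = 0.0729). Neither passed when any array at 14 d was left out, ein2 included (adjusted p 0.0503 to 0.221), and UGT84A3 also missed without either etr1 array (0.0563 and 0.0564). With Col-0 12 d replicate 1 left out 3 members passed, and with its replicate 2 left out 2 passed.

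UGT76E11 was the member with the lowest value in this comparison, and its size depended on which Col-0 12 d array was kept. Its signal was 376.5 and 111.9 in Col-0 at 12 d against 87.3 and 96.1 at 14 d, a difference of -0.89 ± 0.378 (limma adjusted p = 0.218). It was -1.59 (adjusted p = 0.00725) without Col-0 12 d replicate 2 and -0.19 (adjusted p = 0.698) without replicate 1. Over all 25 members the median difference between ages was -0.23, with 10 higher at 14 d, against a median near 0 (0.0038) and 50.4% higher over all tested probe sets. The median was -0.05 without Col-0 14 d replicate 1.

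UGT84A4 and UGT76C1, neighbours of UGT84A3 and UGT76C2, did not follow the same pattern as these over all 6 groups. Between ages in Col-0, UGT84A3 and UGT84A4 were both lower at 14 d (-0.76 and -0.43). UGT84A4 lies next to UGT84A3, and its Col-0 signals were 149.6 and 104.9 at 12 d and 70.8 and 90.3 at 14 d, whereas ein2 at 14 d had 159.6 and 166.8, the highest pair of all groups. UGT76C1, which lies next to UGT76C2 and also glucosylates cytokinins, had 233.5 and 226.6 in Col-0 at 12 d and 248.8 and 230.2 at 14 d. The difference between ages was 0.05 ± 0.172 for UGT76C1 (95% interval -0.33 to 0.43) and 0.73 ± 0.166 for UGT76C2, and the difference between these differences was not tested.

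**Figure D3:**
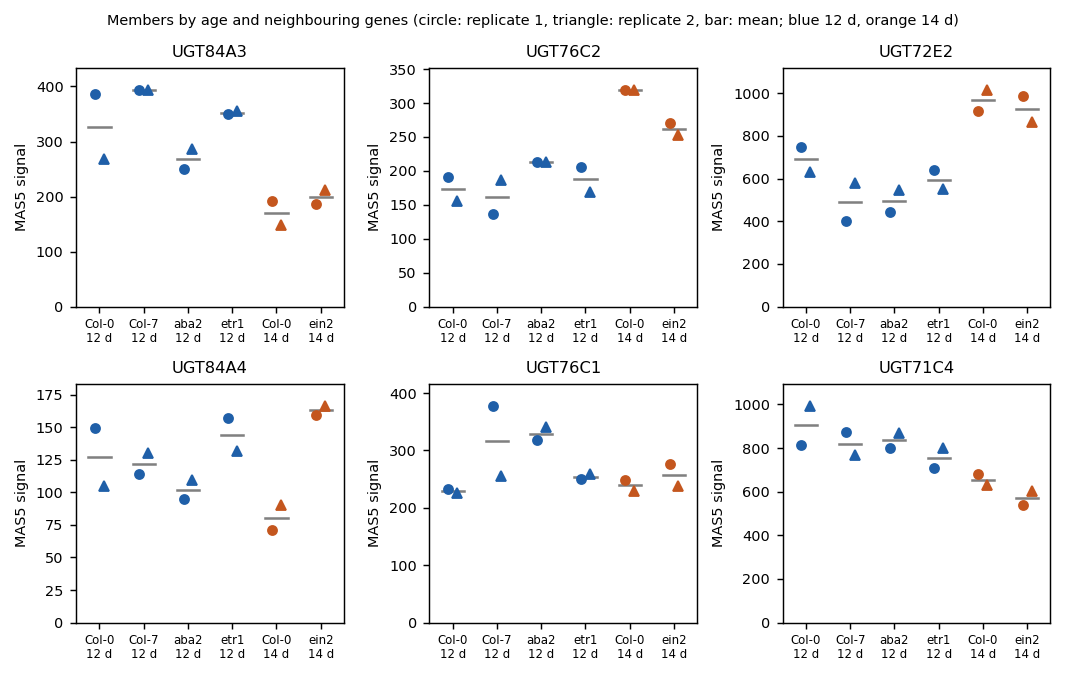
Each panel plots the MAS5 signal of 1 member from 0 upward in the 12 arrays, with circles for replicate 1, triangles for replicate 2, bars for the group mean, blue for 12 d and orange for 14 d. The orange points lie apart from all blue points for UGT84A3, UGT76C2, UGT72E2 and UGT71C4, and among the blue points for UGT76C1, while for UGT84A4 the ein2 points lie above and the Col-0 14 d points below all the others.

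Which members differ when ethylene signalling is lost was asked with ein2 and Col-0 at 14 d. No member passed (0 of 25, against 0.374% of all tested probe sets by limma), and 2 had an unadjusted p under 0.05 (8%, against 5.37% of all). Those were UGT78D1 and UGT84A4, both with higher signal in ein2 (2.71% of all were higher at that p). The direction was mostly the same: 19 of 25 members (76%) were higher in ein2, with a median of 0.15, where 48.9% of all tested probe sets were higher and the median was near 0 (-0.0046). The differences were also above 0 in ein2 for 9 of 9 well-measured beta-glucosidases, which split off sugars (median 0.25), and for 9 of 10 glutathione transferases (median 0.13), with 0 of either called. Arrays did not overlap for 11 members higher in ein2 (44% of 25, against 21.1% of all) and for 3 lower (12%, against 22.2%). The Col-0 arrays at 14 d are shared with the comparison between ages, so a low value in them lowers the age difference and raises that of ein2. These comparisons are therefore not separate support for each other.

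UGT78D1 adds rhamnose to the 3-position of flavonols, and UGT78D2 adds glucose to the same position of flavonols and anthocyanidins. UGT78D1 had signals of 1229 and 838.2 in ein2 against 386.5 and 438.0 in Col-0 at 14 d. At 12 d it had 906.9 and 310.8 in Col-0, 915.8 and 506.9 in Col-7, 445.5 and 333.8 in aba2, and 706.1 and 698.2 in etr1. The ein2 and Col-0 arrays at 14 d were well apart, and the Col-0 arrays at 12 d spanned nearly the whole range of the other groups at 12 d.

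The ein2 difference of UGT78D1 was 1.21 ± 0.405 (limma adjusted p = 0.569), a ratio of mean signals of 2.51. Fitted on the 4 arrays compared, the same difference had an adjusted p of 0.0100, and with array weights 0.0133, and what set these apart was not tested. UGT78D2 had 748.0 and 629.3 in ein2 against 367.3 and 513.8 in Col-0 at 14 d, a difference of 0.60 ± 0.474 (adjusted p near 1). Both flavonoid enzymes were thus higher in both ein2 arrays than in both Col-0 arrays, and neither passed in the fit of all arrays. UGT78D3, the third member of group F, had no signal over 11.6 on any array.

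UGT84A4 was 0.71 ± 0.179 higher in ein2 (95% interval 0.31 to 1.11, limma adjusted p = 0.246, or 0.0187 with array weights). UGT76E11 followed at 0.68 ± 0.378, with 179.9 and 174.0 in ein2 and 87.3 and 96.1 in Col-0. The lowest difference was that of UGT76C2 at -0.25 ± 0.166. By branch, all 4 well-measured members of group L and all 3 of group G were higher in ein2, with medians of 0.24 and 0.40.

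DFR, the dihydroflavonol reductase that leads to anthocyanins, is no member but makes a precursor of UGT78D2's acceptors. It was the only gene paired with a probe set under any of the 23 symbols listed for flavonoid synthesis, some of which name the same gene. DFR was higher in ein2 than in Col-0 at 14 d by 1.90 ± 0.319 (limma adjusted p = 0.0370, or 0.0547 with no filter on low signal, which loses the call). Its signal at 14 d was 63.1 and 176.9 in Col-0 and 528.4 and 566.5 in ein2. At 12 d it was 549.4 and 297.7 in Col-0, 607.5 and 656.2 in Col-7, 202.8 and 157.4 in aba2, and 1306 and 1089 in etr1. From 12 d to 14 d in Col-0, DFR fell by 1.51 ± 0.319 (limma adjusted p = 0.0212). The same Col-0 arrays at 14 d enter both of these DFR differences. UF3GT, an anthocyanin glycosyltransferase that RefSeq also lists as UGT79B1, lay below the filter, with 168.5 and 176.2 in ein2 against 33.4 and 24.0 in Col-0 at 14 d. At 12 d it had 174.4 and 33.2 in Col-0, 232.3 and 108.8 in Col-7, 58.4 and 31.4 in aba2, and 150.3 and 106.2 in etr1. Its ein2 difference was 1.50 ± 0.411 with no filter on low signal (limma adjusted p = 0.386).

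**Figure D4:**
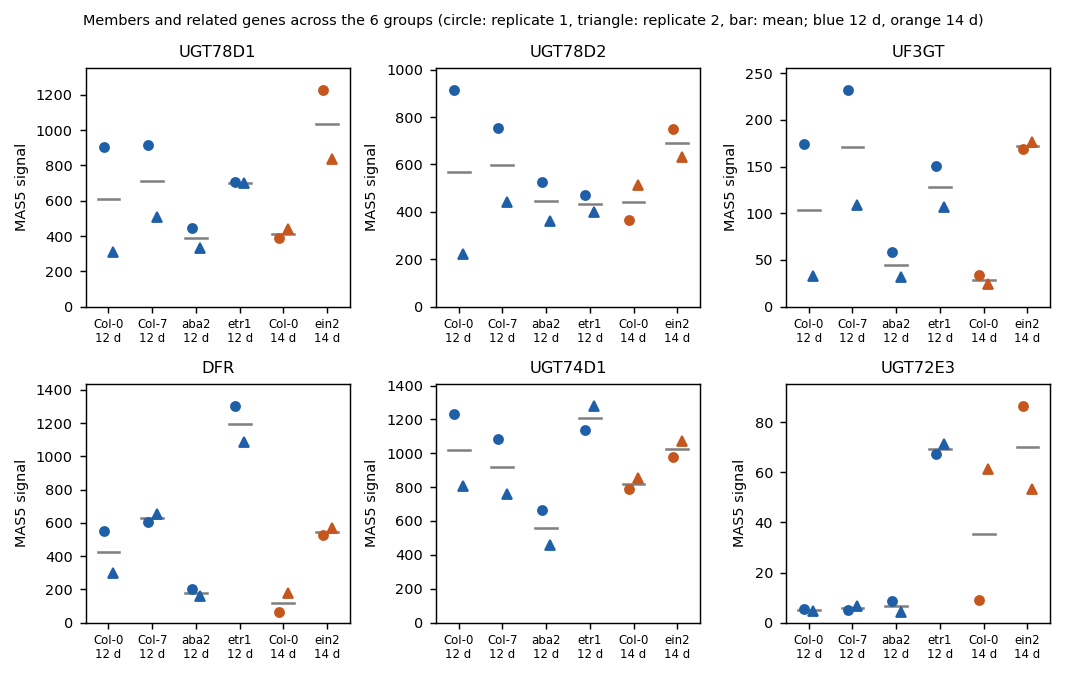
Each panel plots the MAS5 signal of 1 gene from 0 upward in the 12 arrays, with circles for replicate 1, triangles for replicate 2, bars for the group mean, blue for 12 d and orange for 14 d. UGT78D1, UGT78D2, UF3GT and DFR were higher in both ein2 arrays than in both Col-0 arrays at 14 d, UGT74D1 was lowest in aba2, and UGT72E3 was over 50 only in both etr1 arrays, both ein2 arrays and 1 Col-0 array at 14 d.

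In etr1 against Col-0 at 12 d, the second view of ethylene insensitivity, no well-measured member passed (0 of 25, against 0.462% of all by limma), and 0 had an unadjusted p under 0.05, against 9.76% of all. The differences ran from -0.28 (UGT88A1) to 0.55 (UGT71C1), with 17 of 25 higher and a median of 0.11. Over all tested probe sets 52.3% were higher, with a median of 0.0137. The median over members was -0.03 without Col-0 12 d replicate 2 and at most 0.18 without any other array. Arrays did not overlap for 5 members higher in etr1 (20% of 25, against 19.3% of all) and 1 lower (4%, against 16.1%).

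UGT71C1 had 261.9 and 160.7 in etr1 against 142.4 and 108.4 in Col-0 at 12 d, a difference of 0.55 ± 0.276 (limma adjusted p = 0.568). It was 0.27 without etr1 replicate 1 and 0.84 without etr1 replicate 2. UGT87A2, which has been linked to flowering time, had 641.4 and 730.1 against 436.6 and 464.8, a difference of 0.55 ± 0.256 (adjusted p = 0.531). On the log2 scale the etr1 difference was above 0 for all 4 well-measured members of groups H and L, all 3 of group G and both of group D, and below 0 for 6 of 8 in group E. For UGT76E11 and UGT85A4, whose Col-0 replicates lay far apart, the mean signal was the other way (225.6 against 244.2, and 288.7 against 309.8). None of the well-measured members of groups D and G had arrays that did not overlap.

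UGT72E3, a relative of UGT72E2 that also acts on monolignols, was the member below the filter with the clearest grouping. Its signal was 67.3 and 71.2 in etr1 and 86.7 and 53.5 in ein2, but 5.5 and 4.5 in Col-0 at 12 d, 5.2 and 6.6 in Col-7, 8.7 and 4.2 in aba2, and 9.1 and 61.6 in Col-0 at 14 d. The etr1 arrays lay above all 6 other arrays at 12 d, whereas 1 of the 2 Col-0 arrays at 14 d was as high as ein2. With no filter, the etr1 difference was 1.12 ± 0.250 (limma adjusted p = 0.161) and the difference among the 6 groups passed (adjusted p = 0.0292). The same fit called UGT84A3 and UGT72E2 but not UGT76C2, so that 3 of 47 members (against 7.09% of all 22746 probe sets) passed.

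The effects of etr1 and ein2 were also compared directly, as the etr1 difference at 12 d minus the ein2 difference at 14 d. No member passed (0 of 25, against 0.0147% of all by limma), and UGT84A4 alone had an unadjusted p under 0.05 (4% of 25, against 3.54% of all), at -0.57 ± 0.253 with an adjusted p near 1. For UGT78D1 the difference of effects was -0.85 with a 95% interval of -2.12 to 0.42, which includes 0.

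The comparison of aba2 with the wild types at 12 d asked which members differ when ABA synthesis is impaired. Against Col-7, no member passed (0 of 25, against 0.454% of all by limma), and 5 had an unadjusted p under 0.05 (20%, against 12.3% of all), 1 higher and 4 lower (6.64% and 5.67% of all). Against Col-0, no member passed (0 of 25, against 1.62% of all), and 4 had an unadjusted p under 0.05 (16%, against 12.1%). The medians were -0.02 against Col-7 and -0.08 against Col-0, with 12 and 10 of 25 members higher (48% and 40%, against 49.3% and 46.5% of all). The aba2 arrays are shared by these comparisons, so they are not separate support for each other.

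Against Col-7, UGT72E1 was higher in aba2, with 1024.9 and 1248.7 against 450.8 and 804.6, a difference of 0.85 ± 0.272 (limma adjusted p = 0.230). Against Col-0, with 643.2 and 1008.9, the difference was 0.46 ± 0.272 (adjusted p = 0.574). Arrays did not overlap in either case. The 4 members with lower values and an unadjusted p under 0.05 against Col-7 were UGT85A5 (-0.69), UGT74D1 (-0.67), UGT88A1 (-0.53) and UGT84A3 (-0.48), with adjusted p from 0.275 to 0.377. UGT88A1 was -0.09 against Col-0, and UGT84A3 -0.23.

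UGT74D1 glucosylates auxins. Its signal was 664.3 and 458.0 in aba2 against 1233.7 and 805.1 in Col-0 at 12 d, 1086.2 and 756.6 in Col-7, 1139.9 and 1281.6 in etr1, 787.9 and 853.3 in Col-0 at 14 d, and 976.6 and 1072.8 in ein2. Both aba2 arrays lay below every other array. The difference was -0.67 ± 0.245 against Col-7 (limma adjusted p = 0.298) and -0.80 ± 0.245 against Col-0 (adjusted p = 0.182), and the latter was -1.09 (adjusted p = 0.0382) without Col-0 12 d replicate 2 and -0.51 (adjusted p = 0.314) without replicate 1. UGT85A5 was -0.82 ± 0.296 against Col-0 (adjusted p = 0.268), with -1.32 (adjusted p = 0.0193) without Col-0 12 d replicate 1 and -0.33 (adjusted p = 0.490) without replicate 2.

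Set against the ein2 effect, the aba2 effect (from Col-7) had a median difference of -0.23 over the 25 members, where the median over all tested probe sets was near 0. No member passed (0 of 25, against 1.05% of all by limma, lowest adjusted p = 0.171), and 8 had an unadjusted p under 0.05 (32%, against 12.1% of all), 7 of them lower (5.74% of all were lower at that p). UGT78D1 had the largest of these differences at -1.96 ± 0.572 (95% interval -3.23 to -0.69, limma adjusted p = 0.182). Its aba2 difference was -0.75 from Col-7 and -0.43 from Col-0, and its ein2 difference was 1.21. UGT85A5 was at -1.12, UGT74D1 at -0.97 and UGT84A4 at -0.89. No version of this contrast from Col-0 alone is given, so how far its counts depend on the wild type was not tested. The aba2 and ein2 effects also come from plants of different ages, so the contrast does not separate genotype from age.

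Col-7 and Col-0 at 12 d, both wild types, differed in no member by the adjusted test, as in no probe set at all (0 of 25, against 0% by limma), and 2 had an unadjusted p under 0.05 (8%, against 4.79% of all). UGT72E2 was lower in Col-7 (-0.46 ± 0.196) and UGT88A1 higher (0.44 ± 0.186), each with an adjusted p of 0.975. UGT88A1 had 5380.5 and 5900.1 in Col-7, 5048.0 and 3407.2 in Col-0, and 3932.8 and 3843.3 in aba2, so its position in aba2 depended on the wild type. Without Col-0 12 d replicate 1, the wild types differed in 3 members, UGT88A1 among them (0.72, adjusted p = 0.0479).

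**Figure D5:**
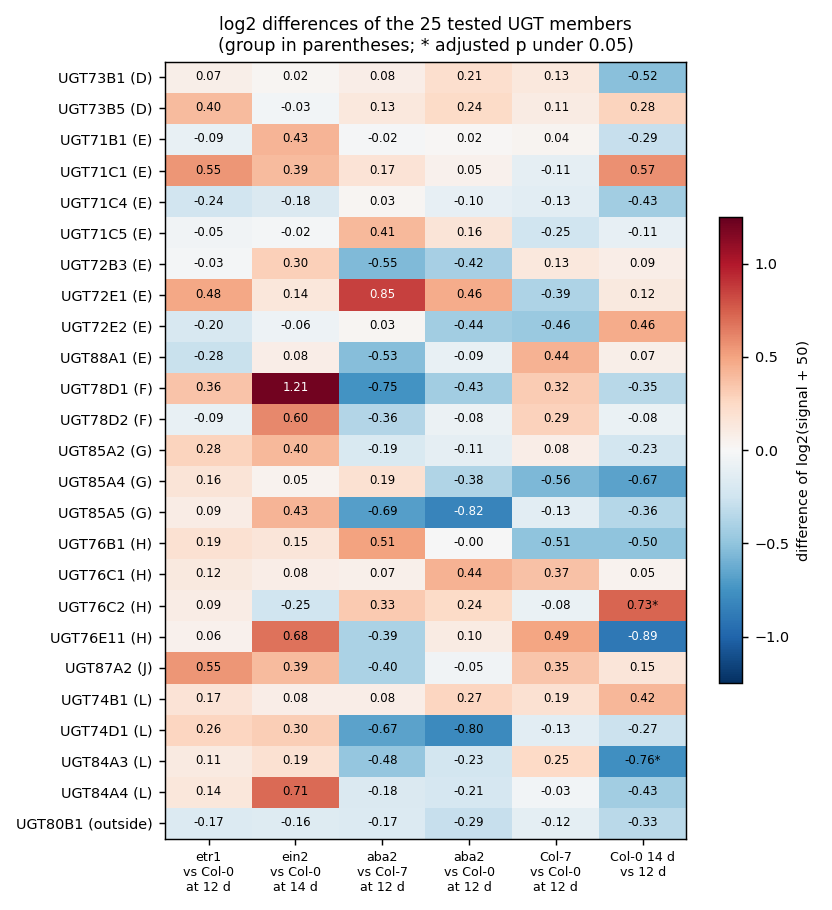
Rows are the 25 well-measured members with their group of the family in parentheses, columns are the 6 comparisons, and colour and printed value give the difference of log2(signal + 50). Asterisks mark an adjusted p under 0.05, which only UGT76C2 (0.73) and UGT84A3 (-0.76) reached, both between ages in Col-0, and the largest value of all is 1.21 for UGT78D1 in ein2.

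A list of 17 UDP-glycosyltransferases with a hormone as substrate held 11 members, of which 5 were well measured and 6 lay below the filter. The other 6 on the list, among them UGT71B7, UGT74F2, UGT74E2 and UGT73C5, were not analysed here under these symbols. Of the ABA enzymes on the list, UGT71C5, which makes the ABA glucose ester, was the only well-measured member. Its signal was 500.7 and 824.0 in aba2, 447.4 and 726.7 in Col-0 at 12 d, and 413.7 and 539.0 in Col-7. It was 568.4 and 535.5 in etr1, 556.4 and 500.1 in Col-0 at 14 d, and 497.9 and 542.4 in ein2. Groups overlapped throughout, and the aba2 difference was 0.41 ± 0.255 against Col-7 (limma adjusted p = 0.548) and 0.16 ± 0.255 against Col-0 (adjusted p = 0.881). UGT71B6 and UGT71B8, the listed ABA enzymes below the filter, stayed at or below 45.4 and 30.9 on all 12 arrays.

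UGT76B1, which glucosylates salicylic acid and isoleucic acid, had the widest spread between replicates among the 25 well-measured members in aba2 (1.86-fold), Col-7 (2.85-fold) and Col-0 at 14 d (2.41-fold). Its signals ranged from 102.4 to 371.4, and its differences between groups ran from -0.51 to 0.51, none of which passed. UGT74F1, another salicylic acid enzyme, did not exceed 59.0. UGT84B1 and UGT84B2, enzymes that act on auxin in vitro, did not exceed 22.6 and 39.8.

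Among the cytokinin enzymes, UGT76C1 had 317.9 and 340.4 in aba2 against 378.1 and 256.2 in Col-7, 250.8 and 258.4 in etr1, and 276.0 and 237.6 in ein2. Its aba2 difference was 0.44 ± 0.172 against Col-0 (limma adjusted p = 0.325) and 0.07 against Col-7, so the wild type set its size. UGT73C1, which acts on cytokinins by O-glucosylation, did not exceed 53.2.

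IAGLU, an indole-3-acetate glucosyltransferase whose symbol keeps it out of the members, is the auxin enzyme that passed. Its signal was 168.5 and 147.9 in etr1 against 632.8 and 525.9 in Col-0 at 12 d, and 244.9 and 190.2 in ein2 against 539.3 and 638.2 in Col-0 at 14 d. It fell by 1.59 ± 0.171 in etr1 (limma adjusted p = 0.00399) and by 1.26 ± 0.171 in ein2 (adjusted p = 0.0108). UGT74D1, the well-measured auxin member, was at 0.26 ± 0.245 in etr1 and 0.30 ± 0.245 in ein2, neither of which passed.

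Averaged over members after centring each on its mean, the 25 members together were at 0.12 ± 0.02 (SD, n = 2) in etr1, 0.10 ± 0.07 in ein2, 0.00 ± 0.11 in Col-0 at 12 d, 0.01 ± 0.06 in Col-7, -0.09 ± 0.04 in aba2 and -0.13 ± 0.06 in Col-0 at 14 d, all on the log2 scale. Group F, the flavonoid enzymes, ranged most among the groups with more than 1 well-measured member, from -0.36 ± 0.30 in aba2 to 0.58 ± 0.27 in ein2, with -0.11 ± 1.14 in Col-0 at 12 d. Group E stayed between -0.12 and 0.17. With 2 arrays a group, a permutation test of a single such value cannot go below an exact p of 0.333, so none was run.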

How the data were processed

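Gene expression was measured on 12 arrays, 2 in each of 6 groups taken from the labels. The deposited values are MAS5 signal intensity, which the authors computed in Affymetrix Microarray Suite 5.0, per the labels and design text. The values were linear and already scaled to a common trimmed mean (2% at each end). The labels give no detection calls, and none were used, so the number of arrays limits the precision.

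The 64 control probe sets were left out. An offset of 50 was added, log2 was taken, and 13648 of 22746 probe sets with a mean signal at or above the 40th percentile were tested. One fit of 6 group means to all 12 arrays was made with limma 3.58.1 in R 4.3.3 (eBayes with trend, 6 residual and 4.35 prior degrees of freedom). Adjusted p-values follow Benjamini-Hochberg over all 13648 for each comparison, with a threshold of 0.05. The procedure was tested on simulated data.

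Members came from the platform annotation, which paired 13513 probe sets with 1 gene, 503 with several and 8730 with none. All 47 members were found in the RefSeq table of assembly TAIR10.1, which holds 58 UGT symbols. 3 probe sets paired with several genes, a UGT among them, were not used. The build behind the files is not given in the sources used here, so no coordinates are given.

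Members and lists were chosen with earlier results of these data known. Array values are given for members that passed a test, that differed by 1 or more on the log2 scale without overlap, or that act on hormones, and mean signals for the 3 highest and 3 lowest; any other member was named after its values had been seen. Alternatives were other offsets, quantile normalization, other filters, no trend, a replicate block, array weights, only the arrays compared, each array left out, and, added after the data were seen, both wild types at 12 d as 1 control and a block within 3 groups. Replicate numbers were not taken to pair the samples: of 15 pairs of groups, deviations correlated over 0.1 in 5 and under -0.1 in 2, although aba2, Col-0 and Col-7 at 12 d all correlated with each other (0.341 to 0.542).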

Additional observations from a re-analysis of the deposited data

How the results depend on the processing

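Of 148 results recomputed under the alternatives for the family's counts and medians, 135 kept their direction and side of the threshold, as did 156 of 180 with 1 array left out. The 2 calls between ages in Col-0 became 0 with no filter, with a filter at the 60th percentile, with array weights and with only the arrays compared. The median difference between ages became -0.120 with no filter and -0.106 at the 60th percentile, where 13 members were left and 1 rather than 3 differed among the 6 groups. Array weights gave 10 members among the 6 groups, 2 in ein2 (UGT78D1 and UGT84A4) and 1 in the aba2 effect minus the ein2 effect. Only the arrays compared gave 1 in ein2 (UGT78D1) and 1 in the latter. With both wild types at 12 d as 1 control, the aba2 median was -0.146, and UGT72E2 passed between ages (0.70, adjusted p = 0.0269). Apart from the change in members tested, the cause was not tested.

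Leaving out 1 array at a time moved the calls between 0 and 3 for age, 0 and 10 among the 6 groups (10 without Col-0 12 d replicate 1, 0 without Col-0 14 d replicate 2 or ein2 replicate 1), 0 and 3 for Col-7, 0 and 1 for aba2 against Col-0, and 0 and 1 for aba2 minus ein2. Medians ranged from -0.028 to 0.179 in etr1, -0.326 to -0.050 for aba2 against Col-0, -0.142 to -0.018 for aba2 against Col-7, -0.197 to 0.035 for Col-7, and -0.254 to -0.049 for age. UGT71C5 in aba2 against Col-0 changed sign (-0.175 to 0.492). UGT84A3 between ages ranged from -0.990 to -0.539, and UGT76C2 from 0.617 to 0.845. UGT76C2 among the 6 groups did not pass with quantile normalization (adjusted p = 0.0603).

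With the replicate number as a block, no count of called members changed: 2 between ages, 3 among the 6 groups and 0 in the other comparisons. Over all 15 pairs of groups the correlations behind the pairing check ran from -0.264 to 0.542, and among aba2, Col-0 and Col-7 at 12 d they were 0.341, 0.486 and 0.542. A replicate block within those 6 arrays, added after the data were seen, called 0 members against Col-7 (7 with an unadjusted p under 0.05, lowest adjusted p = 0.124) and 0 against Col-0 (2, lowest 0.0837, UGT74D1). Over all probe sets it called 104 and 295, against 3 and 27 in these arrays without the block. UGT74D1 was at -0.67 ± 0.193 and -0.80 ± 0.193, and UGT71C5 at 0.41 ± 0.195 and 0.16 ± 0.195.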

Other observations

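Genes whose products act beside the UDP-glycosyltransferases were counted from lists chosen by symbol. Of 20 beta-glucosidases of the BGLU family, which can cleave glucosides, 9 were well measured. From 12 d to 14 d in Col-0, 2 of 9 rose: BGLU28 by 2.52 ± 0.347 (limma adjusted p = 0.00282), from 133.0 and 57.1 to 1077 and 524.8, and BGLU15 by 0.63 ± 0.161 (adjusted p = 0.0464, or 0.0779 with no filter, which loses the call). Of all tested probe sets, 4.61% rose. BGLU28 had 1350 and 1795 in ein2 at 14 d and at most 156.1 on any array at 12 d. Of 13 glutathione transferases, which conjugate other small molecules, 10 were well measured, and the lowest limma adjusted p in the 6 comparisons was 0.0519, between ages. None of the 6 listed green shoot markers was paired with a probe set, and 3 of 6 root markers were. The 2 of these that were well measured had a median difference between ages of 0.52 and did not pass, and their part in the age differences was not tested.

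GT72B1, which RefSeq also lists as UGT72B1, showed the split between replicates of both wild types at 12 d. Its signal was 1716 and 524.9 in Col-0, 1573 and 503.3 in Col-7, 491.4 and 433.1 in aba2, 1014 and 1030 in etr1, 1013 and 1043 in Col-0 at 14 d, and 1534 and 1740 in ein2. The aba2 arrays were the lowest, close to replicate 2 of each wild type at 12 d, and no difference passed.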
